A study of Schizosaccharomyces pombe with 8 samples.

Results

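Transcript levels in fission yeast (Schizosaccharomyces pombe) cells that lacked the long non-coding RNA mamRNA were compared with those of wild-type (wt) cells, both with an intact mot2 gene. The mamRNA∆ strain was h90 mamRNA::natMX and the wt strain was h90, 2 libraries each, so 4 of the 8 RNA-seq libraries of the series were compared. All sense features listed in the counts were examined (6338 of 6973 features, the others being named as antisense), and 5988 of them had enough reads to be tested. Both strains were homothallic, meaning that cells switch mating type and can mate within the culture. Cells had grown for 2 days at 30 °C in minimal medium and were collected while dividing exponentially (optical density 0.6). The natMX resistance cassette was present in mamRNA∆ and not in wt, so its presence and the loss of mamRNA cannot be told apart. The other 4 libraries were mot2∆ mamRNA∆ (h90 mamRNA::hygTK, mot2::kanMX) and mot2∆ (h90 mot2::natMX). They enter the fit throughout and are used at the end for a mamRNA deletion without Mot2, made with other cassettes.

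During mitotic growth, the YTH-family protein Mmi1 binds meiotic mRNAs that leak from their genes and sends them to the nuclear exosome. It recognizes clusters of the RNA motif UNAAAC. Mei2, an RNA-binding protein that drives entry into meiosis, opposes Mmi1, and Mot2, the E3 ubiquitin ligase subunit of the Ccr4-Not complex, keeps Mei2 levels low. mamRNA is transcribed next to the small nucleolar RNA gene snoU14 and takes its name from its association with Mmi1 and Mei2.

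The deleted RNA maps to chromosome II, chrII:1307681-1308359 on the + strand of the RefSeq assembly ASM294v3, a length of 679 nt. The stretch that holds its Mmi1 motifs is shown because it is what the mutant lacks. It covers chrII:1308095-1308208 (+ strand, positions 415 to 528 of the RNA) as DNA letters, and the capitals mark the 3 matches to TNAAAC on the strand of the RNA, at positions 445 to 450, 458 to 463 and 493 to 498.
mamRNA: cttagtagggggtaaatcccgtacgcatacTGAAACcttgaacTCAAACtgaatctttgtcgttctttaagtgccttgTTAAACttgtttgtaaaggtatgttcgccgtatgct

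The libraries held 29882663 and 34667534 counts in mamRNA∆ and 22381332 and 26408549 in wt, and a floor of 3 counts lay between 0.0847 and 0.141 CPM (counts per 1000000 of the TMM-scaled library size). Replicates differed by a median of 0.0684 log2 units in mamRNA∆ and 0.151 in wt. Ribosomal RNA features held 0.633% and 0.423% of the counts in mamRNA∆, against 2.28% and 0.723% in wt, so wt replicate 1 stood apart in this residue of the depletion. Counts of mamRNA were not analysed here, so nothing in the data checks the mamRNA∆ label. The mot2 gene was at 18.9 and 18.8 CPM in mamRNA∆ and 22.3 and 23.4 CPM in wt (log2 fold change −0.28 ± 0.09, adjusted p = 0.0298), and its adjusted p was over 0.05 without wt replicate 2, mamRNA∆ replicate 1 or mamRNA∆ replicate 2 (0.0659, 0.125 and 0.147) and with DESeq2, scaling by total counts or a fit of only the 4 libraries compared (0.0754, 0.118 and 0.0614). Whether reads were counted by strand is not given in the sources used here. In the counts, 22 of 25 pairs of features that cover the same bases on opposite strands (88.0%) had mean CPM within 1.5-fold of each other, against 12.7% of neighbouring pairs that do not overlap. Of 561 antisense features and the genes they are named after, which need not cover the same bases, 56.7% were within 1.5-fold. Reads of features that cover the same bases on opposite strands therefore could not be assigned to one of them. Fewer cells of a type and less RNA per cell cannot be told apart in such bulk samples.

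The question was which gene functions change when mamRNA is lost from cells that have Mot2. A feature is said to have passed when its adjusted p was under 0.05 (edgeR quasi-likelihood test, two-sided, Benjamini-Hochberg over all 6620 features), and to be called when its log2 fold change was also over 1 in size. Of the 5988 sense features, 158 were called higher in mamRNA∆ (2.64%) and 91 lower (1.52%), and 1208 passed as higher (20.2%) and 1362 as lower (22.7%). The median log2 fold change was −0.02. The genes called higher included flocculins, amino acid and peptide permeases, some subtelomeric genes and small non-coding RNAs. Genes called lower included enzymes of the methionine cycle and of glycolysis, other subtelomeric genes and ribosomal RNA features. By class, 66 protein-coding or other features were called higher and 65 lower of 5110 tested, whereas 63 noncoding RNAs were called higher and 17 lower of 758 tested. Each list below is described by its counts and median, to be read against these shares of all sense features. A value after ± is the SE (standard error) of the fold change on the log2 scale, and CPM values are given per library, replicate 1 before replicate 2. No source says that the 2 libraries of a genotype came from separate cultures, so p-values measure a spread between libraries that may be technical. That spread was estimated over all 8 libraries of the series, those without Mot2 included.

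**Figure D1:**
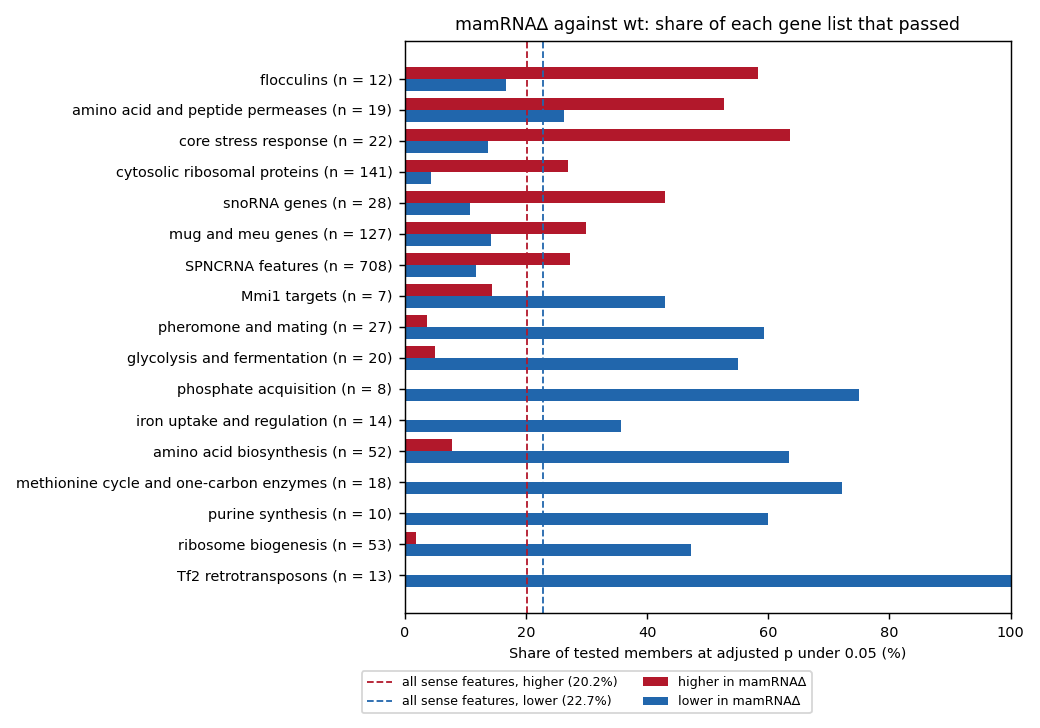
Share of the tested members of selected gene lists (in %, with the number tested in brackets) that passed as higher in mamRNA∆ (red bars) or lower (blue bars), with dashed lines at the shares of all sense features, 20.2% and 22.7%. Of the 12 flocculins 7 passed as higher, and all 13 Tf2 retrotransposons passed as lower. The list of methionine cycle and one-carbon enzymes was put together after the values were seen.

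Cell-surface flocculins, glycoproteins that make fission yeast cells stick to one another, held the highest median of any list of protein-coding genes (1.78, against −0.02 for all sense features). Of 12 tested, 7 were called higher, 2 passed as lower without being called, and 7 were called higher with each other scaling, with DESeq2 and without each library. A filter of at least 10 counts in every library left pfl6, pfl9 and SPBC1348.08c untested. The number that passed as lower was 1 without wt replicate 1 or mamRNA∆ replicate 2. The main flocculin gene, gsf2, was at 2862 and 2846 CPM in mamRNA∆, against 286 and 254 CPM in wt (3.40 ± 0.10, adjusted p = 1.56e-09). Part of gsf2, 37.6% of its 75-base windows, has copies elsewhere in the genome. The gene pfl3 was at 865 and 807 CPM in mamRNA∆ and 193 and 176 CPM in wt (2.181 ± 0.09). Both genes were thus abundant, and the mamRNA∆ libraries lay far above both wt libraries.

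Lower-abundance flocculins moved by similar or larger ratios. The gene pfl6 had 5.43 and 5.51 CPM in mamRNA∆, against 0.610 and 0.289 CPM in wt (3.66 ± 0.29). SPBC1348.08c, a glycoprotein gene 22.1 kb from an end of chromosome II, had 4.78 and 4.63 CPM in mamRNA∆ and 0.141 and 0.362 CPM in wt (4.13 ± 0.40, and 5.02 without wt replicate 2). The gene pfl9 had 3.85 and 2.91 CPM in mamRNA∆ and 0.188 and 0.398 CPM in wt (3.44 ± 0.48, and 4.13 without wt replicate 2). The wt libraries of these genes were close to the counting floor. Most of the sequence of pfl6 (93.6% of windows) and SPBC1348.08c (94.4%) is repeated in the genome, so reads could have been placed on either copy. The calls of pfl6 and SPBC1348.08c may therefore not be separate measurements. The gene fta5 had 96.5 and 72.9 CPM in mamRNA∆ and 19.3 and 17.98 CPM in wt (2.183 ± 0.15), and pfl4 had 207 and 199 CPM, against 78.7 and 76.3 CPM (1.39 ± 0.07). The exceptions were pfl2, at 954 and 1087 CPM in mamRNA∆ and 1817 and 1462 CPM in wt (−0.68 ± 0.12), and pfl5 (−0.28 ± 0.07, adjusted p = 0.0104, but 0.0681 without wt replicate 1 and 0.114 without mamRNA∆ replicate 2).

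Among 16 tested regulators of flocculation, 2 were called higher, 6 passed as higher and 3 as lower, with a median of 0.11. The called genes were transcription factors known to promote flocculation or cell adhesion. The MADS-box activator mbx2 was at 130.2 and 129 CPM in mamRNA∆ and 64.1 and 63.5 CPM in wt (1.02 ± 0.06, adjusted p = 1.65e-07). The CSL-family factor cbf12 was at 228 and 259.6 CPM in mamRNA∆ and 112 and 104 CPM in wt (1.17 ± 0.09, adjusted p = 2e-06). A second MADS-box gene, mbx1, moved the other way, with 45.7 and 47.9 CPM in mamRNA∆ and 80.0 and 75.7 CPM in wt (−0.73 ± 0.08). The regulator gsf1 passed as higher without being called, with 182 and 227 CPM in mamRNA∆ and 146 and 130 CPM in wt (0.57 ± 0.12). What part any of these regulators had in the flocculin values was not tested.

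**Figure D2:**
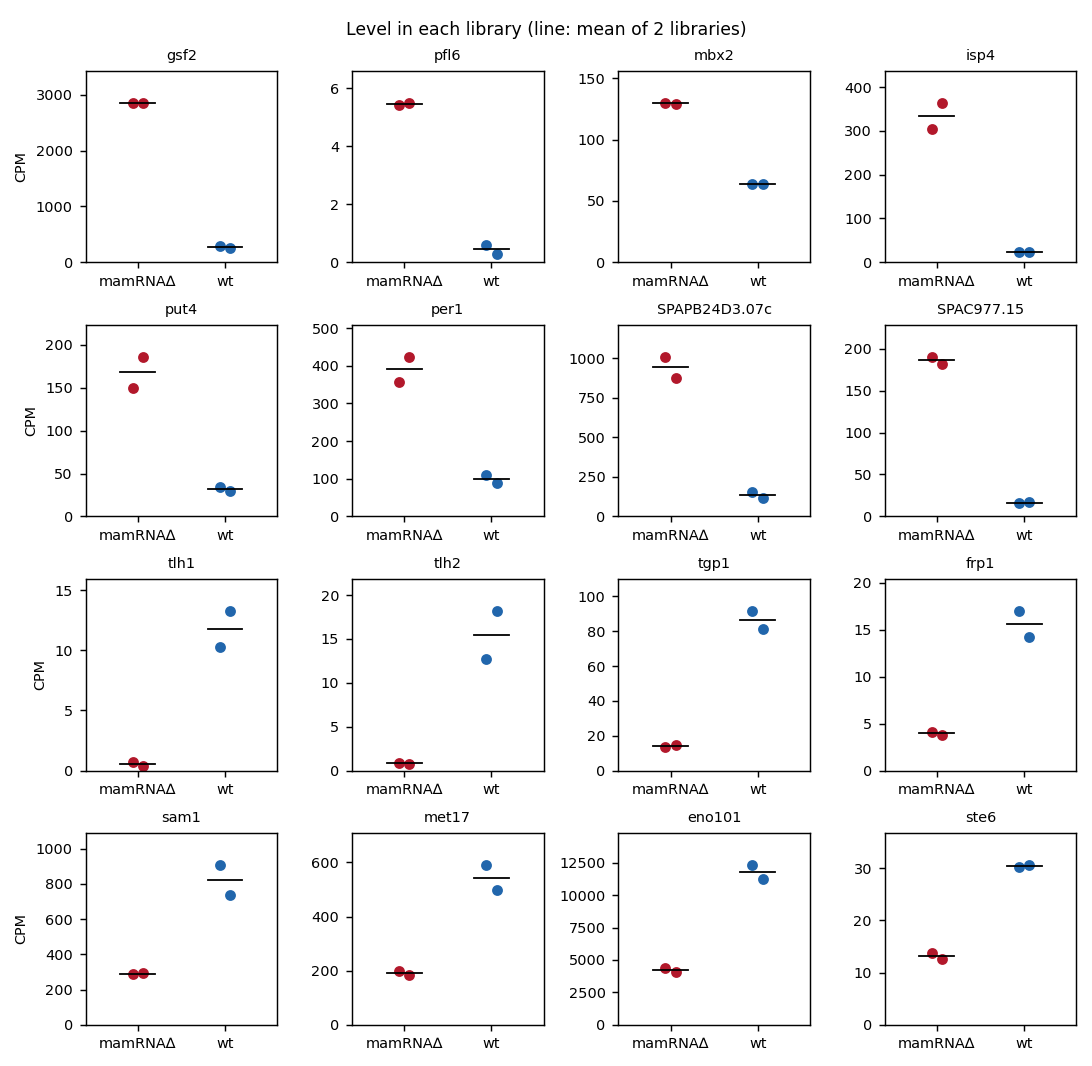
CPM of 16 genes in each library, on a linear axis from 0, with mamRNA∆ (red) left of wt (blue), a point for each library and a line at the mean of the 2 libraries. In none of the panels do the genotypes overlap, which also held for 71.1% of all sense features. For gsf2 the mamRNA∆ points sit at 2862 and 2846 CPM, above the wt points at 286 and 254 CPM.

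Transporters that bring in amino acids and peptides formed a further group. Of 19 amino acid and peptide permeases tested, 5 were called higher and 1 lower, against 2.64% and 1.52% of all sense features. The list's median was 0.22, and 10 passed as higher and 5 as lower. There were 5 called higher with each other scaling, with DESeq2 and without each library, whereas the number that passed as higher was 5 without wt replicate 2 and 5 without mamRNA∆ replicate 2. The oligopeptide transporter isp4 had 303 and 364 CPM in mamRNA∆ and 24.1 and 24.6 CPM in wt (3.78 ± 0.14, adjusted p = 4.12e-09). The proline permease put4 had 149.7 and 186.2 CPM in mamRNA∆ and 34.1 and 30.1 CPM in wt (2.39 ± 0.13, adjusted p = 7.83e-08). The permease per1 had 358 and 424 CPM in mamRNA∆ and 110.2 and 89.7 CPM in wt (1.97 ± 0.11), and isp5 had 31.3 and 43.6 CPM against 12.8 and 12.5 CPM (1.57 ± 0.16). The peptide transporter ptr2, named after its values were seen, had 655 and 739 CPM in mamRNA∆ and 244 and 204 CPM in wt (1.64 ± 0.10). For these 5 genes no mamRNA∆ library overlapped a wt library, as was the case for 71.1% of all sense features. The permease called lower, SPBPB10D8.01, had 0.560 and 0.565 CPM in mamRNA∆ and 2.49 and 2.89 CPM in wt (−2.26 ± 0.25).

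The 18 tested genes of the nitrogen starvation list had a median of −0.02, the same to 2 decimals as all sense features. Of these, 3 were called higher, 6 passed as higher and 4 as lower (2 without wt replicate 1, mamRNA∆ replicate 1 or mamRNA∆ replicate 2). The called genes were isp4, isp5 and isp7, which encodes a 2-oxoglutarate-dependent oxygenase linked to amino acid uptake. The isp7 transcript was at 245 and 281 CPM in mamRNA∆ and 79.0 and 83.5 CPM in wt (1.70 ± 0.09). The ammonium transporter amt1 passed, with 244 and 258 CPM in mamRNA∆ and 138 and 122 CPM in wt (0.95 ± 0.08).

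GATA-type transcription factors, among them fission yeast Gaf1, bind DNA through the letters GATA and act on genes of nitrogen use. The 250 bases before the annotated start of 4 of the 5 called permeases are shown, from ASM294v3, with GATAA on either strand (read as TTATC on the other) in capitals. They were chosen after the values were seen.
put4, chrI:5492914-5493163, + strand: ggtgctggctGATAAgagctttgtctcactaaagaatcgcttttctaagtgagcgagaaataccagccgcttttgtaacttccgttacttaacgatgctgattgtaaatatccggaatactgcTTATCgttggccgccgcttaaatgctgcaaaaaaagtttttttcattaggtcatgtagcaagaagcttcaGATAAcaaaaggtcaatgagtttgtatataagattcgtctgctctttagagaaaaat
per1, chrI:3749191-3749440, + strand: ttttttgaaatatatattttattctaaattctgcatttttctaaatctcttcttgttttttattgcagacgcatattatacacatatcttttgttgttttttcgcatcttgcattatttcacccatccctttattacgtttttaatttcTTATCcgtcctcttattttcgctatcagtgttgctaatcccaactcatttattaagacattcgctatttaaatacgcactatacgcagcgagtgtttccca
isp5, chrI:5466507-5466756, + strand: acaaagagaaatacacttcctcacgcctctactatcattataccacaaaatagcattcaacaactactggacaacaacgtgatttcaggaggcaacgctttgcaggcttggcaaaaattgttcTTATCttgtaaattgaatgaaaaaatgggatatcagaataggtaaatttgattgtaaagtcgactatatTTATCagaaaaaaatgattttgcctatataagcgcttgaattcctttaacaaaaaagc
ptr2, chrII:3408360-3408609, − strand: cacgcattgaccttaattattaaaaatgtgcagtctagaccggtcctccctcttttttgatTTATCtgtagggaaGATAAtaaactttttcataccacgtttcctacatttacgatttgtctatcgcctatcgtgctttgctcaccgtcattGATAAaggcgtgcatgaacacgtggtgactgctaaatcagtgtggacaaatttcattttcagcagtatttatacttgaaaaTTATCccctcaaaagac

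The windows hold 3 matches in put4, 1 in per1, 2 in isp5 and 4 in ptr2. GATAA was present in all 5 promoters of the permeases called higher and in 11 of the 14 others (78.6%), against 2744 of 5072 promoters of the same length (54.1%). Over the promoters of all genes called higher it was present in 31 of 64 (48.4%), and of genes called lower in 36 of 65 (55.4%). The longer GATAAG, which contains GATAA, was in 3 of the 5 permeases, 4 of the 14 others (28.6%) and 513 of 5072 promoters (10.1%). It was in 11 of 64 promoters of all genes called higher (17.2%) and 8 of 65 of genes called lower (12.3%). A match describes letters only and does not show that a factor binds.

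Enzymes of amino acid synthesis passed mainly as lower. Of 52 tested, 33 passed as lower and 4 as higher, 3 were called lower and none higher, and the median was −0.34. The number that passed as lower was 26 to 36 over the alternatives, and the number that passed as higher was 1 without mamRNA∆ replicate 1 or without mamRNA∆ replicate 2. The 3 called were met17, met26 and ser3, and without wt replicate 2 there was also 1 called higher. Homocysteine synthase, met17, had 200.1 and 185 CPM in mamRNA∆ and 591 and 497 CPM in wt (−1.4995 ± 0.10, adjusted p = 5.04e-07). The methionine-forming methyltransferase met26 had 3141 and 2958 CPM in mamRNA∆ and 7375 and 6553 CPM in wt (−1.19 ± 0.11, adjusted p = 4.38e-06). The phosphoglycerate dehydrogenase ser3, which opens serine synthesis, had 743 and 729 CPM in mamRNA∆ and 1611 and 1353 CPM in wt (−1.01 ± 0.10). Its size was close to the fold threshold, and it was not called with scaling by total counts (−0.98), without wt replicate 1 (−0.86) or without mamRNA∆ replicate 2 (−0.997).

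A list of 18 enzymes of the methionine cycle and one-carbon metabolism, put together after the values were seen, had 13 that passed as lower, 6 of them called, none that passed as higher, and a median of −0.55. The S-adenosylmethionine synthetase sam1 had 286 and 294 CPM in mamRNA∆ and 906 and 739 CPM in wt (−1.504 ± 0.10). Adenosylhomocysteinase, SPBC8D2.18c, had 1532 and 1506 CPM in mamRNA∆ and 4508 and 3850.5 CPM in wt (−1.46 ± 0.10). The glycine cleavage subunit gcv1 had 154 and 147 CPM in mamRNA∆ and 446 and 391 CPM in wt (−1.47 ± 0.08), and the folate enzyme thf1, a trifunctional C1-tetrahydrofolate synthase, had 534 and 508 CPM against 1571 and 1262 CPM (−1.44 ± 0.11). In each of these genes both mamRNA∆ libraries lay below both wt libraries. Genotypes did not overlap for 71.1% of all sense features. In purine synthesis, which draws on one-carbon units, 6 of 10 genes passed as lower, none was called (1 without wt replicate 2 or mamRNA∆ replicate 2), and the median was −0.27. The largest purine change was in ade10, with 431 and 444 CPM in mamRNA∆ and 912 and 814 CPM in wt (−0.98 ± 0.08). The biotin transporter vht1, among the 15 largest decreases, had 209 and 179 CPM in mamRNA∆ and 981 and 844 CPM in wt (−2.23 ± 0.11).

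In central carbon metabolism, 11 of 20 tested genes of glycolysis and fermentation passed as lower, 3 of them called, 1 passed as higher, and the median was −0.33. The 3 called genes were abundant, which does not hold for every gene of the list. Enolase, eno101, had 4389 and 4060.2 CPM in mamRNA∆ and 12320.4 and 11226 CPM in wt (−1.48 ± 0.11, adjusted p = 7.98e-07). Glyceraldehyde-3-phosphate dehydrogenase, tdh1, had 6869 and 6263 CPM in mamRNA∆ and 17689.6 and 17011 CPM in wt (−1.40 ± 0.11). Pyruvate decarboxylase, pdc101, had 4959 and 4349 CPM in mamRNA∆ and 10843 and 9509 CPM in wt (−1.13 ± 0.12). There were 3 called lower with each other scaling, with DESeq2 and without each library, and none passed as higher without wt replicate 2, mamRNA∆ replicate 1 or mamRNA∆ replicate 2.

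Hexose transporters were split, with 3 of 8 that passed as higher, 3 as lower, 2 called lower and a median of 0.15. The number that passed as higher was 1 without wt replicate 2, and as lower 1 without wt replicate 2 or mamRNA∆ replicate 1, and without wt replicate 1 there was 1 called higher. The transporter ght6 had 17.2 and 16.0 CPM in mamRNA∆ and 50.5 and 57.1 CPM in wt (−1.70 ± 0.10). The high-affinity glucose transporter ght5, far more abundant, had 3274 and 3874 CPM in mamRNA∆ and 2097 and 2029.6 CPM in wt (0.79 ± 0.13). The other call, ght7, rested on low counts, with 0.198 and 0.226 CPM in mamRNA∆ and 1.03 and 0.796 CPM in wt (−2.06 ± 0.64, adjusted p = 0.0218). That call was lost without any 1 of the 4 libraries (adjusted p = 0.130 without wt replicate 1, 0.0902 without wt replicate 2, 0.0654 without mamRNA∆ replicate 1 and 0.0678 without mamRNA∆ replicate 2). Of 12 glucose-repressed genes, 1 was called higher, 2 passed as higher (1 without mamRNA∆ replicate 2) and 1 as lower (none without wt replicate 2, mamRNA∆ replicate 1 or mamRNA∆ replicate 2).

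Several genes of phosphate and iron uptake fell. Of 8 phosphate acquisition genes, 6 passed as lower, 2 of them called, none passed as higher, and the median was −0.32. The number that passed as lower was 3 without wt replicate 1, mamRNA∆ replicate 1 or mamRNA∆ replicate 2. The glycerophosphodiester transporter tgp1 had 13.3 and 14.97 CPM in mamRNA∆ and 91.6 and 81.4 CPM in wt (−2.61 ± 0.09, adjusted p = 2.81e-09). It overlaps another annotated gene and non-coding RNAs, and reads over the shared bases could belong to either. The polyphosphate polymerase subunit vtc4 had 358 and 369 CPM in mamRNA∆ and 853 and 701 CPM in wt (−1.10 ± 0.09, and −0.93, not called, without wt replicate 1). Of 14 iron uptake and regulation genes, 5 passed as lower (3 without wt replicate 1 or mamRNA∆ replicate 2), 1 of them called, with a median of −0.13. The ferric reductase frp1 had 4.12 and 3.84 CPM in mamRNA∆ and 17.0 and 14.3 CPM in wt (−1.97 ± 0.18), and the iron transport oxidase fio1 had 184 and 180.2 CPM against 344 and 306 CPM (−0.84 ± 0.18). Of 13 zinc and copper genes, 5 passed as higher and 2 as lower, and of 10 thiamine-repressed genes 2 passed in each direction (1 as lower without mamRNA∆ replicate 2), with no call in either list.

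Meiotic transcripts that Mmi1 is known to eliminate did not move in one direction. Of 7 Mmi1 targets tested, 3 passed as lower and 1, crs1, was called higher, with a median of −0.26. Without wt replicate 2 none was called higher and 1 was called lower, and without mamRNA∆ replicate 2 there was also 1 called lower. The forkhead factor gene mei4 had 6.09 and 6.36 CPM in mamRNA∆ and 8.88 and 9.52 CPM in wt (−0.56 ± 0.13, adjusted p = 0.00429). The meiRNA gene sme2 had 8.14 and 8.56 CPM in mamRNA∆ and 17.6 and 15.1 CPM in wt (−0.96 ± 0.11, adjusted p = 2.76e-05). The meiotic cohesin rec8 had 2.997 and 2.57 CPM in mamRNA∆ and 4.18 and 4.31 CPM in wt (−0.61 ± 0.17, adjusted p = 0.013), but did not pass without wt replicate 2 (0.0651) or mamRNA∆ replicate 2 (0.107). The meiotic cyclin crs1 had 3.72 and 3.45 CPM in mamRNA∆ and 1.88 and 1.27 CPM in wt (1.21 ± 0.22, adjusted p = 0.00112, and 0.92, not called, without wt replicate 2). The dynein anchor mcp5 had 16.6 and 16.1 CPM in mamRNA∆ and 20.2 and 19.1 CPM in wt (−0.26 ± 0.10, adjusted p = 0.0568), the microtubule-associated ssm4 had 5.76 and 6.64 CPM against 7.47 and 7.05 CPM (−0.22 ± 0.14, 0.215), and spo5 had 2.83 and 2.175 CPM against 2.07 and 2.06 CPM (0.27 ± 0.19, 0.271). The p of mcp5 lay near the threshold and was 0.0498 with RLE size factors.

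The genes around the Mmi1 and Mei2 circuit had no call. Transcripts of mei2 were at 352 and 361 CPM in mamRNA∆ and 548 and 409 CPM in wt (−0.42 ± 0.13, adjusted p = 0.0194). They did not pass without wt replicate 1 (−0.18, 0.222), mamRNA∆ replicate 1 (0.0845) or mamRNA∆ replicate 2 (0.0674). Transcripts of mmi1 were at 148 and 144 CPM in mamRNA∆ and 163 and 154 CPM in wt (−0.12 ± 0.06, 0.155). The neighbour of the deleted gene, snoU14, had 30.4 and 36.8 CPM in mamRNA∆ and 58.9 and 43.7 CPM in wt (−0.60 ± 0.15, adjusted p = 0.0066), and it did not pass without wt replicate 1 (−0.36, 0.121). The non-coding RNA omt3 had 19.3 and 18.9 CPM in mamRNA∆ and 28.5 and 28.0 CPM in wt (−0.56 ± 0.07, adjusted p = 5.88e-05). Of 16 Mmi1 and nuclear RNA elimination factors, 6 passed as lower (3 without mamRNA∆ replicate 2) and 1 as higher (none without mamRNA∆ replicate 1). Of 7 Ccr4-Not subunits, mot2 among them, 2 passed as lower and 1 as higher, against none in either direction without mamRNA∆ replicate 1 or mamRNA∆ replicate 2. Without wt replicate 1 the Ccr4-Not genes that passed as higher were 2, and without wt replicate 2 none. Of 8 regulators of meiotic entry 3 passed as lower and 1 as higher (2 without wt replicate 2). None of these 3 lists held a called gene, but 1 regulator of meiotic entry was called lower without wt replicate 2 or mamRNA∆ replicate 2.

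Because homothallic cultures can hold mating cells, markers of mating and meiosis were examined too. Of 27 pheromone and mating genes, 16 passed as lower, 1 of them called, 1 passed as higher (2 without wt replicate 1), and the median was −0.38. The calls were 3 without wt replicate 2 and 2 without mamRNA∆ replicate 1. Summed over the list the level was 1751 and 1818 CPM in mamRNA∆, against 2321 and 2013 CPM in wt. No gene of the list was at 0 in any of the 4 libraries, and 2 were under 1 CPM in all of them. The guanine nucleotide exchange factor ste6, which activates Ras1, had 13.7 and 12.5 CPM in mamRNA∆ and 30.3 and 30.6 CPM in wt (−1.22 ± 0.09, adjusted p = 1.33e-06). The pheromone-response kinase spk1 had 50.4 and 46.9 CPM in mamRNA∆ and 101 and 86.9 CPM in wt (−0.95 ± 0.09), and the P-factor receptor mam2 had 17.6 and 14.7 CPM against 32.2 and 25.7 CPM (−0.84 ± 0.12). Among 12 spo genes (sporulation) 4 passed as higher and 3 as lower, and among 11 rec genes (recombination) likewise 4 and 3, with no call in either. Without mamRNA∆ replicate 2, 1 spo gene passed as lower, and 2 rec genes passed as higher and 1 as lower. Without mamRNA∆ replicate 1, 2 rec genes passed as higher. The rec median was close to 0 and took either sign over the scalings. Summed levels were 767 and 751 CPM in mamRNA∆ and 689 and 720.3 CPM in wt for the spo genes, and 152 and 154 CPM against 134 and 138 CPM for the rec genes. Of 127 genes named mug or meu, for meiotic upregulation, 38 passed as higher, 18 as lower, 1 was called higher and 3 lower, with a median of 0.06. The 38 became 25 with DESeq2, 23 without wt replicate 2 and 20 without mamRNA∆ replicate 2, and the 18 became 10 without mamRNA∆ replicate 2. The 3 called lower became 1 without wt replicate 1. What part a changing number of mating cells had in these values was not tested.

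Called features near the ends of chromosomes I and II stood in both directions. Within 25 kb of an end, 7 of 26 tested features were called higher (26.9%) and 6 lower (23.1%), and between 25 and 50 kb 10 of 35 (28.6%) and 4 (11.4%). Between 50 and 100 kb the calls were 8 higher (11.8%) and 10 lower (14.7%) of 68, and beyond 100 kb they were 114 higher (2.44%) and 48 lower (1.03%) of 4678. Of 72 genes tested from a list of subtelomeric genes, 17 were called higher and 13 lower, with a median of −0.06 that changed sign when some single libraries were left out. The genes closest to the ends, tlh1 and tlh2, encode RecQ-type helicases whose sequences are nearly identical, so they are one measurement rather than separate ones. The gene tlh1 had 0.725 and 0.424 CPM in mamRNA∆ and 10.2 and 13.3 CPM in wt (−4.38 ± 0.22, adjusted p = 3.36e-08), and tlh2 had 0.889 and 0.734 CPM against 12.7 and 18.2 CPM (−4.26 ± 0.21). Of their 75-base windows, 98.7% and 92.8% had another copy in the genome.

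**Figure D3:**
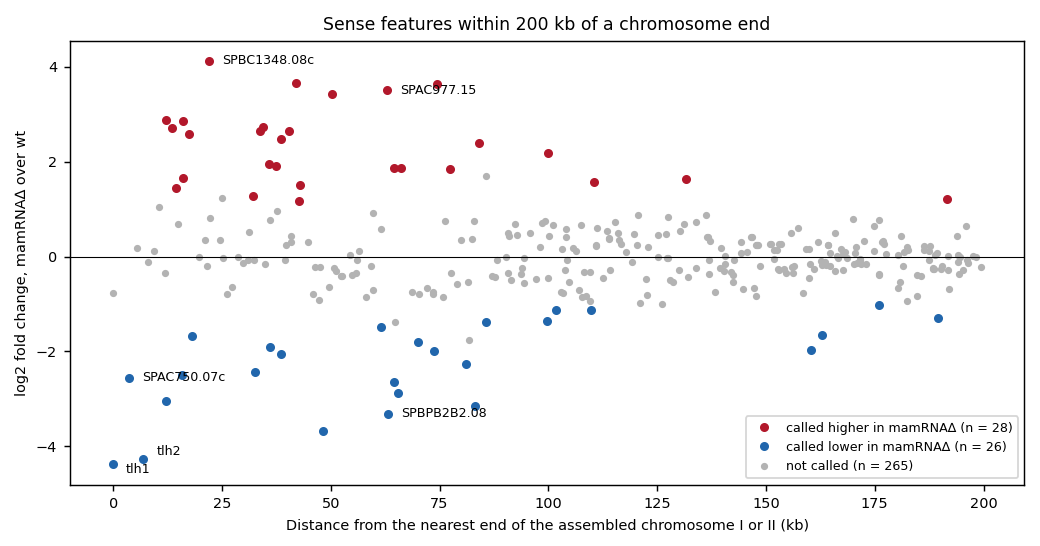
Log2 fold change of mamRNA∆ over wt of each tested sense feature within 200 kb of an end of the assembled chromosome I or II, against its distance from that end in kb, with called features in red (higher) and blue (lower). Called features stand on both sides of 0, 28 higher and 26 lower beside 265 not called, with tlh1 and tlh2 at the lower left.

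Other subtelomeric genes fell as well. SPBPB2B2.08, of unknown function, had 0.362 and 0.282 CPM in mamRNA∆ and 2.82 and 3.55 CPM in wt (−3.31 ± 0.27), and SPAC212.08c had 0.231 and 0.339 CPM against 2.25 and 2.57 CPM (−3.05 ± 0.27). SPAC750.07c, a sequence repeated over its whole length, had 0.395 and 0.311 CPM in mamRNA∆ and 1.97 and 2.17 CPM in wt (−2.56 ± 0.26). SPBPB21E7.04c, annotated as a catechol O-methyltransferase, had 1.12 and 1.47 CPM in mamRNA∆ and 9.44 and 7.09 CPM in wt (−2.65 ± 0.20). Each of these was present at low level in wt and lower still in mamRNA∆.

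The increases included a block of 5 consecutive features on chromosome I without repeated sequence, SPAC977.15 to SPAPJ695.01c. SPAC977.15, of the dienelactone hydrolase family, had 190.3 and 182 CPM in mamRNA∆ and 15.8 and 16.9 CPM in wt (3.51 ± 0.22, adjusted p = 2.03e-07). Its neighbour dak2, a dihydroxyacetone kinase of glycerol use, had 304 and 319 CPM in mamRNA∆ and 94.01 and 77.4 CPM in wt (1.86 ± 0.16). SPAPJ695.02, uncharacterized, had 6.19 and 6.95 CPM in mamRNA∆ and 0.141 and 0.832 CPM in wt (3.63 ± 0.34), and as 1 wt library was at the counting floor the estimate was 2.99 without wt replicate 1 and 5.50 without wt replicate 2. A repeated set of genes at several ends moved together. SPBC1348.04, annotated as a methyltransferase, had 56.0 and 52.0 CPM in mamRNA∆ and 6.997 and 7.53 CPM in wt (2.89 ± 0.11), SPAC750.03c had 59.9 and 56.6 CPM against 8.78 and 7.31 CPM (2.87 ± 0.12), and SPAC977.04 had 40.1 and 36.5 CPM against 6.01 and 5.46 CPM (2.74 ± 0.16). At least 84.3% of the windows of each are repeated, so reads of these copies cannot be told apart. Of 204 tested features with at least 10% repeated windows, 27 were called higher and 17 lower. With them not counted, 131 sense features were called higher and 74 lower.

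Tf2 retrotransposons and heterochromatin factors gave smaller changes. All 13 tested Tf2 elements passed as lower, 2 of them called, with a median of −0.93, but only 3 passed and none was called without wt replicate 2, whereas 11 were called without wt replicate 1, 1 without mamRNA∆ replicate 1 and 4 without mamRNA∆ replicate 2. The copies are near-identical and are not separate measurements. The largest change was in Tf2-7, at 6.19 and 7.34 CPM in mamRNA∆ and 12.6 and 15.3 CPM in wt (−1.04 ± 0.18, and −0.89 without wt replicate 2 or −0.93 without mamRNA∆ replicate 1). Of 25 RNAi and heterochromatin factors, 6 passed as higher and 3 as lower, none was called, and the median was 0.01. The 3 became 5 without wt replicate 1 and 1 without mamRNA∆ replicate 1 or mamRNA∆ replicate 2, and 1 was called lower without wt replicate 2.

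Long non-coding RNAs were called mainly as higher. Of 708 features named SPNCRNA, 60 were called higher and 16 lower, with 193 and 83 that passed and a median of 0.10, and of 43 prl RNAs 3 were called higher, with 12 that passed as higher and 3 as lower. The prl RNAs that passed as lower were 6 without wt replicate 1, 1 without wt replicate 2 and 5 without mamRNA∆ replicate 2, and 2 were called lower without wt replicate 1 and 1 without mamRNA∆ replicate 2. The longest run of consecutive called features was of 9 on chromosome I, 8 non-coding RNAs next to the transcription factor gene hsr1 and hsr1 itself. These 8 were singled out after the values were seen, as members of that run, so their all being called higher follows from the choice. Their log2 fold changes lay between 1.28 and 3.11, with a median of 1.78 (1.70 to 1.86 when 1 library was left out). All 8 were also called higher with each other scaling and with DESeq2, on the same libraries. SPNCRNA.780 had 5.11 and 5.17 CPM in mamRNA∆ and 0.610 and 0.579 CPM in wt (3.11 ± 0.22), and SPNCRNA.779 had 16.6 and 15.1 CPM against 2.25 and 2.64 CPM (2.68 ± 0.14). These 2 overlap on opposite strands. The gene hsr1 had 329 and 389.7 CPM in mamRNA∆ and 178 and 150.3 CPM in wt (1.13 ± 0.11, adjusted p = 8.43e-06). Its lowest log2 fold change over the alternatives was 0.999, which is not a call.

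A more abundant pair was SPNCRNA.865 and SPAPB24D3.07c, which overlap on opposite strands. SPNCRNA.865 had 1052 and 904 CPM in mamRNA∆ and 166 and 130.1 CPM in wt (2.73 ± 0.12), and SPAPB24D3.07c had 1009 and 874 CPM against 157 and 119 CPM (2.77 ± 0.13), so the same reads may have been counted for both. Among decreases, SPNCRNA.1255 had 0.758 and 0.989 CPM in mamRNA∆ and 5.64 and 4.49 CPM in wt (−2.51 ± 0.25). The feature named mitRNA had 53.1 and 50.2 CPM in mamRNA∆ and 309.6 and 250.1 CPM in wt (−2.44 ± 0.10). Of 1412 genes known only by systematic identifiers, 52 were called higher and 28 lower, with 322 and 333 that passed (198 and 211 without mamRNA∆ replicate 2).

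Of the small structured RNAs, all called tRNA and snoRNA features were higher, whereas all called ribosomal RNA features were lower. Of 168 tRNA features in the counts 43 were tested, and of these 15 were called higher and none lower, with a median of 1.04. A feature with few reads in wt could be tested through enough reads in another genotype, mamRNA∆ included. A tRNA with few reads in every library could not be tested. The split of the tRNA calls and their median therefore depend in part on this filter. The mean level of the 15 was between 0.240 and 10.2 CPM in mamRNA∆ and between 0.0362 and 1.73 CPM in wt, and the 15 became 8 with DESeq2, 8 without wt replicate 2 and 5 without mamRNA∆ replicate 2. Of 52 snoRNA features, 10 were called higher and none lower, 32 passed as higher and 4 as lower, and the median was 0.69. Among the 28 snoRNA genes with a symbol, 6 were called higher (3 without wt replicate 2) and none lower (1 without wt replicate 2 or mamRNA∆ replicate 2), led by snoR69b, with 5.40 and 7.01 CPM in mamRNA∆ and 1.36 and 2.06 CPM in wt (1.83 ± 0.23). Among 6 spliceosomal snRNA features, grouped after the values were seen, 3 were called higher and 1 lower. The U6 gene snu6 had 95.8 and 129.9 CPM in mamRNA∆ and 44.3 and 40.0 CPM in wt (1.42 ± 0.17), whereas the U4 gene snu4 had 0.461 and 0.395 CPM against 1.13 and 1.12 CPM (−1.39 ± 0.28). The RNase MRP RNA mrp1 had 5025 and 5080.4 CPM in mamRNA∆ and 2625 and 2222 CPM in wt (1.06 ± 0.10, and 0.94, not called, without wt replicate 2).

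Of 15 ribosomal RNA features, 8 were called lower and none higher, with a median of −1.83. These transcripts were the target of the depletion, and their total share differed between the libraries of wt (2.28% and 0.723%) more than between those of mamRNA∆ (0.633% and 0.423%). SPRRNA.45 had 149 and 103 CPM in mamRNA∆ and 972 and 283 CPM in wt (−2.31 ± 0.51, adjusted p = 0.00354), and without wt replicate 1 its log2 fold change was −1.15 (adjusted p = 0.0929).

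The translation apparatus gave small changes, with list medians above and below 0. Of 141 cytosolic ribosomal protein genes, 38 passed as higher and 6 as lower, none was called, and the median was 0.14. The 38 became 60 with scaling by total counts, 21 without wt replicate 2, 13 without mamRNA∆ replicate 1 and 17 without mamRNA∆ replicate 2, where the 6 became 3. Without mamRNA∆ replicate 1, with RLE size factors or with DESeq2, 1 was called lower. The largest decrease was in rps2202, with 32.5 and 31.4 CPM in mamRNA∆ and 63.5 and 64.0 CPM in wt (−0.998 ± 0.08), and the largest increase in rpp202, with 1970.5 and 2010.2 CPM against 1384 and 1209.7 CPM (0.62 ± 0.10). Of 53 ribosome biogenesis genes, 25 passed as lower and 1 as higher (2 without wt replicate 2, none without mamRNA∆ replicate 1), with a median of −0.26. The 25 became 11 with scaling by total counts, 10 without wt replicate 2 and 9 without mamRNA∆ replicate 2. The preribosome factor enp2, the 1 called (2 were called without wt replicate 1 or mamRNA∆ replicate 1), had 29.2 and 26.7 CPM in mamRNA∆ and 55.8 and 69.4 CPM in wt (−1.17 ± 0.10). Among 23 further preribosome factors, listed after the values were seen, 12 passed as lower (7 without wt replicate 2), 4 of them called, and 1 as higher (none without mamRNA∆ replicate 1 or mamRNA∆ replicate 2), with a median of −0.37. The 4 calls became 1 without wt replicate 2 and 2 without mamRNA∆ replicate 2. Of 46 mitochondrial ribosomal protein genes by name, 10 passed as lower and 2 as higher (4 without wt replicate 1, 7 without wt replicate 2), and the 1 called was mrp1, which by its symbol falls in this list but is the RNase MRP RNA. Of 52 respiratory chain and ATP synthase genes, 15 passed as lower (7 with scaling by total counts, 6 without mamRNA∆ replicate 1, 8 without mamRNA∆ replicate 2) and 2 as higher (4 with scaling by total counts, 10 without wt replicate 1, 5 without wt replicate 2, 1 without mamRNA∆ replicate 1), with no call.

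Stress and housekeeping lists held 1 called gene, ssa1. Of 22 core stress response genes, 14 passed as higher (9 without mamRNA∆ replicate 2) and 3 as lower (1 without wt replicate 1 or mamRNA∆ replicate 1), with a median of 0.30 and no call (1 lower without wt replicate 1). The disaggregase hsp104 had 1147 and 1118 CPM in mamRNA∆ and 620.3 and 627 CPM in wt (0.86 ± 0.09), while cta3, a cation ATPase, had 22.5 and 22.4 CPM against 37.3 and 45.7 CPM (−0.89 ± 0.10). Of 18 chaperones, 7 passed as higher and 2 as lower (4 without wt replicate 2). The cytosolic Hsp70 ssa1 was the 1 called, with 2093 and 2143 CPM in mamRNA∆ and 1078 and 958 CPM in wt (1.06 ± 0.10, and 0.97, not called, without wt replicate 2), and the mitochondrial Hsp70 ssc1 had 765 and 713 CPM against 1207 and 1222 CPM (−0.72 ± 0.08). Of 20 cell wall enzymes 6 passed as higher (1 without wt replicate 2, 2 without mamRNA∆ replicate 2) and 3 as lower (1 without wt replicate 1, mamRNA∆ replicate 1 or mamRNA∆ replicate 2). Of 9 cell separation genes 4 passed as higher (1 without wt replicate 2 or mamRNA∆ replicate 2) and 1 as lower. Of 11 MBF cell cycle genes 3 passed as higher (1 without mamRNA∆ replicate 2) and 2 as lower (none without mamRNA∆ replicate 1). Of 23 sterol synthesis genes 3 passed as higher (5 without wt replicate 1, 1 without wt replicate 2) and 4 as lower (2 without mamRNA∆ replicate 1 or mamRNA∆ replicate 2). Of 11 histone genes none passed as higher and 4 as lower (1 without wt replicate 1 or mamRNA∆ replicate 1, 2 without mamRNA∆ replicate 2). None of these 5 lists held a called gene, but 1 cell wall enzyme was called higher without wt replicate 1.

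Deletion of mamRNA in cells without Mot2, mot2∆ mamRNA∆ over mot2∆, shares no library with the comparison above. Filter, scaling and dispersion were common to both, from the same fit. The alleles also differ, with mamRNA::hygTK and mot2::kanMX over mot2::natMX here, against mamRNA::natMX over wt above. Cassette differences and the absence of Mot2 therefore cannot be told apart in what follows. It called 136 sense features higher (2.27%) and 260 lower (4.34%). Of the 158 features higher in mamRNA∆ over wt, 12 were also called higher without Mot2 (7.59% of the 158 and 8.82% of the 136), 27 were called lower and 119 were not called. Of the 91 lower, 18 were called lower (19.8% of the 91 and 6.92% of the 260), 11 higher and 62 not at all. The median log2 fold change of the 158 was 1.57 with Mot2 and −0.09 without it, and of the 91 it was −1.504 and −0.05. The difference between both effects, tested as an interaction in the same edgeR fit, was called for 114 of the 158 and 64 of the 91. It was called for 271 of all sense features above 0 (4.53%) and 387 below 0 (6.46%). The 158 and 91 were chosen by the contrast that enters the interaction, so these shares are a description.

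**Figure D4:**
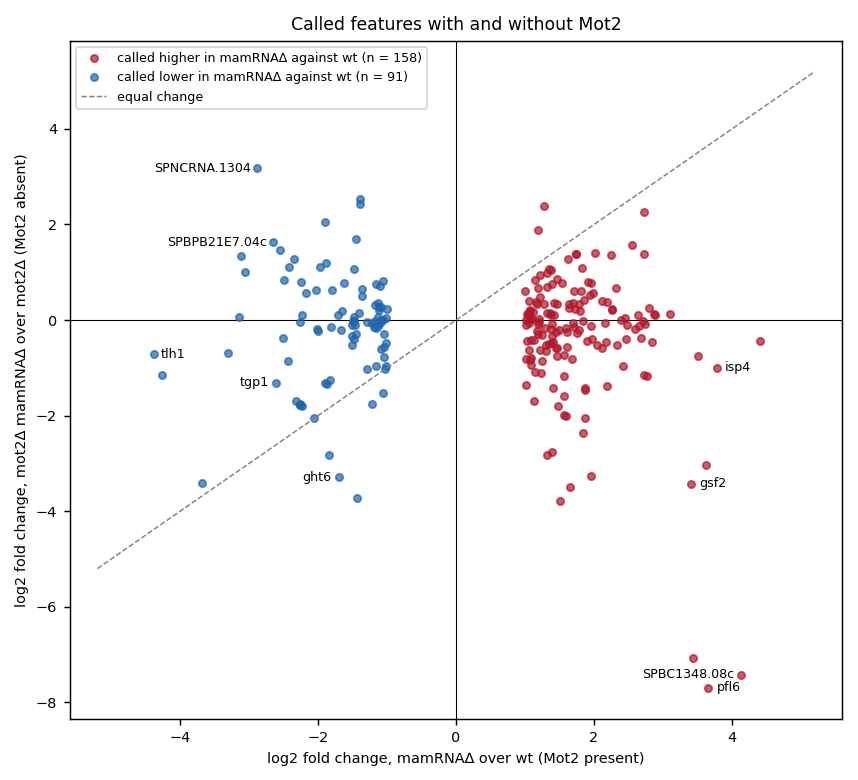
Log2 fold change for deleting mamRNA without Mot2 (mot2∆ mamRNA∆ over mot2∆, vertical axis) against that with Mot2 (mamRNA∆ over wt, horizontal axis), for the 158 sense features called higher (red) and the 91 called lower (blue) with Mot2, with a dashed line where both are equal. Most points lie near 0 on the vertical axis, and gsf2 lies at −3.43 on the vertical and 3.40 on the horizontal axis.

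Flocculins moved in opposite directions with and without Mot2. Without Mot2, 9 of 12 were called lower, with a median of −2.70, against 7 called higher and a median of 1.78 with Mot2. The gene gsf2 had 473 and 482 CPM in mot2∆ mamRNA∆ and 5258 and 5028 CPM in mot2∆ (−3.43). The gene pfl6 had 0.272 and 0.462 CPM in mot2∆ mamRNA∆ and 67.7 and 84.3 CPM in mot2∆ (−7.69), and mbx2 had 49.1 and 49.3 CPM against 128 and 125 CPM (−1.36). Flocculin levels in mamRNA∆ thus lay between those of wt and mot2∆ for pfl6, whereas mbx2 was at a like level in mamRNA∆ and mot2∆.

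Several genes of uptake, glycolysis and methionine synthesis had log2 fold changes near 0 without Mot2. The gene put4 had 102 and 101 CPM in mot2∆ mamRNA∆ and 87.9 and 116 CPM in mot2∆ (log2 fold change −0.00), and eno101 had −0.02, met17 −0.01 and sam1 −0.09 as log2 fold changes of mot2∆ mamRNA∆ over mot2∆. The oligopeptide transporter isp4 had 42.9 and 50.2 CPM in mot2∆ mamRNA∆ and 80.2 and 106 CPM in mot2∆ (−0.997). The 7 Mmi1 targets were the reverse case, with 6 called lower without Mot2 and a median of −2.06, against a median of −0.26 with Mot2. The gene spo5 averaged 2.25 ± 0.24 CPM in mot2∆ mamRNA∆ and 73.3 ± 5.21 CPM in mot2∆ (SD, n = 2 each, log2 fold change −5.02). Of the 27 pheromone and mating genes, 17 were called lower without Mot2, with a median of −1.33. Iron genes had a median of 0.84 without Mot2, with 5 of 14 called higher, where frp1 had 29.6 and 29.5 CPM in mot2∆ mamRNA∆ and 11.01 and 16.4 CPM in mot2∆ (1.11). Of 52 amino acid synthesis genes, 31 passed as higher without Mot2 and 1 as lower (median 0.27). Ribosome biogenesis had 38 of 53 genes that passed as higher and 1 as lower (0.55). In glycolysis and fermentation 3 of 20 passed as higher, pdc101 among them (0.37), and 7 as lower (−0.04). For the 18 methionine cycle and one-carbon enzymes the numbers were 6 and 4.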

How the data were processed

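Total RNA from a hot acid phenol extraction was treated with RiboZero gold to remove ribosomal RNA and sequenced as pairs of 75 nt reads. Per the labels and methods, base calls were converted with bcl2fastq 2.18.12, adapters were removed with Cutadapt 1.15, and reads were aligned with Bowtie2 (Galaxy) and counted per annotated feature with MulticovBed. The deposited values are raw counts, which the authors did not normalize. The genome build, the annotation and the strand setting are not given in the sources used here. The titles gave the genotype of each library.

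The tests used edgeR 4.0.16 (with limma 3.58.1, in R 4.3.3). Features kept by filterByExpr (minimum count 10, minimum total 15) numbered 6620, 5988 of them sense. Libraries were scaled by TMM, and all 8 libraries were fitted with 1 coefficient per genotype, 2 libraries each. The contrasts were mamRNA∆ over wt, mot2∆ mamRNA∆ over mot2∆ and their difference (interaction), each tested with the quasi-likelihood F test (two-sided, Benjamini-Hochberg adjustment over all 6620 features). A call needed a log2 fold change over 1 in size beside an adjusted p under 0.05. The SE is the size of the log2 fold change divided by the square root of F. CPM used TMM-scaled library sizes, and floors cover counting error only. The scripts were tested on simulated data with known fold changes.

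The members and gene lists were chosen with earlier results of these data known, and 5 lists were added after the values were seen (methionine cycle and one-carbon enzymes, tRNA features, spliceosomal snRNA features, non-coding RNAs next to hsr1, further preribosome factors). Named genes came from a panel, from the 15 largest changes each way among called features with a mean of at least 1 CPM in the higher genotype and no overlap between genotypes, and from up to 4 members of each list that passed. The genes ptr2, sam1, gcv1, SPBC8D2.18c, thf1, pfl4, pfl2, pfl5, hsr1, snu6 and snu4 were named after their values were seen. Of 5988 sense features, 5892 were matched by identifier to RefSeq ASM294v3 for positions, overlaps, repeated 75-base windows and sequences, which are credited to RefSeq.

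Alternatives were RLE size factors, total-count scaling, DESeq2 1.42.0, other filters, sense features only, ribosomal RNA left out, only the 4 libraries compared, a replicate block, no fold threshold and leaving out each library. Not counting repeated sequence or ribosomal RNA features was chosen after seeing the data.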

Additional observations from a re-analysis of the deposited data

Results flagged for a closer look

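For 70 of the 86 genes named, gsf1 not counted, the effect of deleting mamRNA differed between cells without and with Mot2. The measure was the interaction, the log2 fold change of mot2∆ mamRNA∆ over mot2∆ minus that of mamRNA∆ over wt, called in the edgeR quasi-likelihood test at an adjusted p under 0.05 and a size over 1. It was below 0 for 41 genes and above 0 for 29, and over all sense features it was called for 658 (11%). The genes were named partly for their mamRNA∆ over wt values, which enter the interaction, so the number is a description. The mamRNA and mot2 cassettes also differ between the contrasts, so their part cannot be told apart from that of Mot2.

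The 4 values furthest below 0 were those of flocculins, of which pfl6 and SPBC1348.08c may not be separate measurements. The interaction was −11.55 for SPBC1348.08c, −11.35 for pfl6, −10.50 for pfl9, −6.83 for gsf2, −4.16 for pfl4, −3.56 for fta5, −2.64 for pfl3 and −1.49 for pfl5, and 1.53 for pfl2. For the regulators it was −2.38 for mbx2, −1.41 for cbf12 and 1.33 for mbx1. Nitrogen and peptide uptake genes had −4.77 for isp4, −2.74 for isp5, −2.39 for put4, −2.36 for per1, −1.34 for isp7, −1.30 for ptr2 and −1.26 for amt1, against 2.23 for SPBPB10D8.01.

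Metabolic genes that were lower in mamRNA∆ over wt had values above 0. The interaction was 1.49 for met17, 1.41 for sam1, 1.37 for SPBC8D2.18c, 1.15 for thf1, 1.09 for gcv1, 1.06 for ser3, 1.04 for met26 and 1.28 for ade10. In glycolysis it was 1.55 for tdh1, 1.496 for pdc101 and 1.46 for eno101. Uptake genes gave 3.08 for frp1, 2.34 for vht1, 2.00 for fio1 and 1.30 for tgp1, whereas the hexose transporters gave −1.59 for ght6 and −1.03 for ght5. Translation and chaperone genes gave 1.92 for enp2, 1.02 for rps2202, −1.45 for hsp104 and −1.68 for ssa1.

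Meiotic and mating genes were below 0, at −5.29 for spo5, −3.11 for mcp5, −1.85 for crs1, −1.75 for mei4, −1.502 for mam2, −1.45 for rec8, −1.24 for ssm4 and −1.04 for sme2. Subtelomeric genes took both signs. The interaction was 4.28 for SPBPB21E7.04c, 4.05 for SPAC212.08c, 4.02 for SPAC750.07c, 3.67 for tlh1, 3.11 for tlh2 and 2.62 for SPBPB2B2.08. It was −6.67 for SPAPJ695.02, −4.25 for SPAC977.15, −3.33 for dak2, −2.83 for SPAC977.04, −2.79 for SPBC1348.04 and −2.74 for SPAC750.03c. Non-coding RNAs and their neighbours gave −3.94 for SPAPB24D3.07c, −3.87 for SPNCRNA.865, −3.05 for SPNCRNA.779, −2.99 for SPNCRNA.780, −1.55 for hsr1 and −1.06 for snu6, against 3.92 for snu4, 2.13 for SPNCRNA.1255 and 1.58 for mitRNA.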

How the results depend on the processing

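The counts of 158 higher and 91 lower stayed within 1.5 times under every alternative but the one that drops the fold threshold (1208 and 1362). Leaving out 1 library gave 142 to 180 higher, 124 to 143 of them among the 158, and 89 to 107 lower, 71 to 79 of them among the 91. DESeq2 called 138 and 85, of which 138 and 84 were shared, and at least 10 counts in every library gave 120 and 71. Not counting repeated sequence gave 131 and 74, and not counting ribosomal RNA features 83 lower. Of the values of single named genes under the alternatives, 1090 kept direction and side of the threshold, 2 newly passed (mcp5), 19 no longer passed (6 for mot2, 4 for ght7, 3 for mei2, 2 each for rec8 and pfl5, 1 each for snoU14 and SPRRNA.45) and none changed direction. The threshold in this tally was an adjusted p of 0.05, without the fold size that a call needs. Calls lost through fold size alone, such as those of ser3 and vtc4, therefore counted as kept. The gene gsf1 was not part of the tally. Replicates 1 and 2 share only a number. Across features their differences in wt and mamRNA∆ had Pearson's r = −0.00967, and a fit with the replicate number as a block called 160 higher and 94 lower. With 2 libraries per genotype, low-count features such as ght7 and the tRNAs were limited by depth, at a floor of 0.0847 to 0.141 CPM.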
